A study of Mus musculus with 2 samples.

Results

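The expression of 9 genes of glycogen synthesis and breakdown (Ugp2, Gyg, Gys1, Gbe1, Pygm, Pygb, Phka1, Phkg1 and Ppp1r3c) was compared between hearts that lack Med1 in cardiomyocytes and control hearts. These genes were listed by symbol for their roles, with earlier results of these data known, and all 9 were found among the 22882 gene symbols of the RNA-seq data. Med1 is a subunit of the Mediator complex, which links transcription factors such as nuclear receptors to RNA polymerase II. The control group was Med1fl/fl mice, which carry a loxP-flanked Med1 allele and no Cre. The csMed1-/- group carried the same floxed allele with a Cre transgene driven by the α-myosin heavy chain promoter, which is active in cardiomyocytes, so the deletion is not aimed at other cells of the heart. All mice were 23 days old, of mixed sex and of C57BL6/J background. Heart RNA of 5 mice per genotype was combined into a pool, and each pool gave 1 library. There is thus no replicate library, the spread between animals or pools cannot be estimated, and no gene was tested for a difference between the genotypes. The deposited values are FPKM, fragments counted per unit of transcript length and scaled to the library by a rule not given in the sources used here. Levels can thus be set side by side between genes of the same library.

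Glycogen is the branched glucose store of the cytosol, which the heart can use as a fuel reserve. UDP-glucose is made from glucose 1-phosphate by UDP-glucose pyrophosphorylase, glycogenin starts the chain by glucosylating itself, glycogen synthase extends it and the branching enzyme adds branches. Glycogen phosphorylase releases glucose 1-phosphate, and it is switched on by phosphorylase kinase, a complex of alpha, beta, gamma and calmodulin subunits in which gamma is the catalytic one. Protein phosphatase 1, brought to glycogen by targeting subunits, reverses this switch and activates the synthase.

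Of the 9 genes, 4 were more than 2-fold lower in csMed1-/- than in Med1fl/fl heart and 0 were more than 2-fold higher. The 4 genes, Phkg1, Pygb, Gbe1 and Pygm, are 44.4% of the 9. Of all 10489 genes tested (no value of 0, and a higher value of at least 1 FPKM), 18.0% were more than 2-fold lower and 13.6% more than 2-fold higher. The 9 genes had a median log2 ratio of csMed1-/- to Med1fl/fl of -0.63, with quartiles of -1.25 and -0.32, whereas all genes tested had a median of -0.07, with quartiles of -0.72 and 0.55. Ratios below 1 were found for 7 of the 9 genes and for 53.2% of all genes tested. With 9 genes that share 1 pair of libraries, these shares describe the list and are not a test of it. At a 1.5-fold threshold 6 of the 9 genes were lower and 0 higher (all genes tested, 29.7% and 23.7%), and at 4-fold 1 was lower and 0 higher (5.14% and 4.32%). All 9 genes passed the filter on low values, and each stands on a single row of the files.

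**Figure D1:**
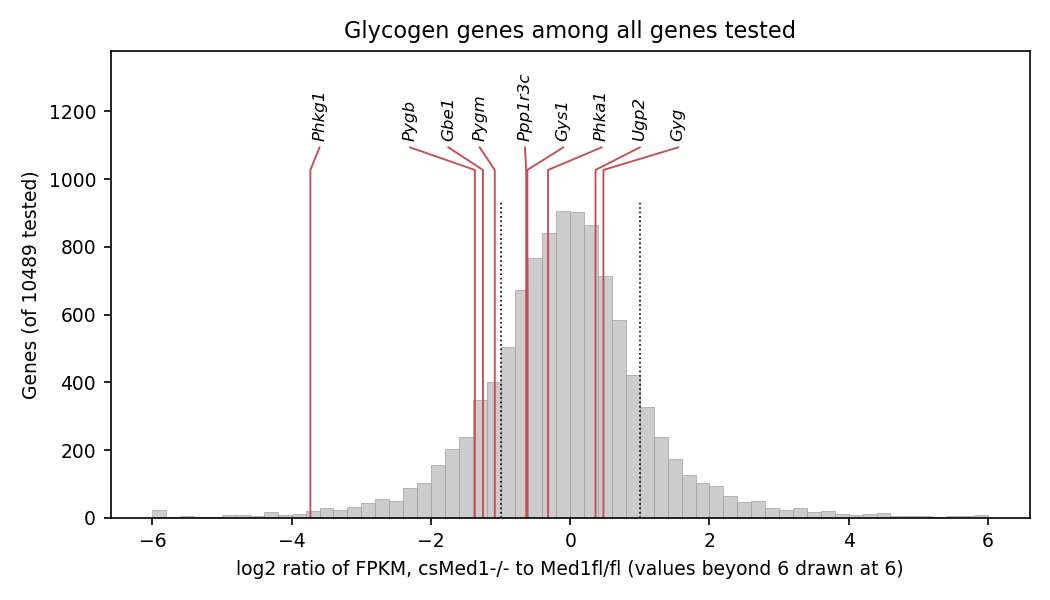
Histogram of the log2 ratio of FPKM, csMed1-/- to Med1fl/fl, over the 10489 genes tested (grey bars, number of genes on the vertical axis), with the 9 glycogen genes as red lines and dotted lines at 2-fold. Phkg1 lies far in the lower tail at -3.73, Pygb, Gbe1 and Pygm lie just below the lower 2-fold line, and Ugp2 and Gyg lie above 0 but within 2-fold.

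The sequences in front of the transcription starts are shown for the 4 genes that were more than 2-fold lower, and for Gys1 and Phka1, which were not. Each is the 250 bases before the RefSeq start, 5′ to 3′ on the strand of the gene, on GRCm38.p6, the build also called mm10. For Pygb the last 61 of them, which GENCODE M21 places in an exon of the gene, were left out. Capitals mark matches to any of the motifs searched, which are named after the sequences.
Phkg1: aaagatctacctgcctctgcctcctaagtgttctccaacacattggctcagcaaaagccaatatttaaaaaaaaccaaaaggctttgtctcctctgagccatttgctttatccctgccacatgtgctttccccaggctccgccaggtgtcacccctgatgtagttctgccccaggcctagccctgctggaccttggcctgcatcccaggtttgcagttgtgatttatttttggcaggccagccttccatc
Pygb: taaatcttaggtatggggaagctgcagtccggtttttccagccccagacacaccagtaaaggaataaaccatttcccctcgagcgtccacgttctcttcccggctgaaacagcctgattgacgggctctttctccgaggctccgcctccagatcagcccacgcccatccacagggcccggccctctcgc
Gbe1: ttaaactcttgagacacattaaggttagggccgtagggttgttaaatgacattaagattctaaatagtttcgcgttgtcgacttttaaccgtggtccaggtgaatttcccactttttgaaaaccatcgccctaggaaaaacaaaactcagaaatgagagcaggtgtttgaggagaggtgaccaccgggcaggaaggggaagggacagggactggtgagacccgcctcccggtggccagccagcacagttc
Pygm: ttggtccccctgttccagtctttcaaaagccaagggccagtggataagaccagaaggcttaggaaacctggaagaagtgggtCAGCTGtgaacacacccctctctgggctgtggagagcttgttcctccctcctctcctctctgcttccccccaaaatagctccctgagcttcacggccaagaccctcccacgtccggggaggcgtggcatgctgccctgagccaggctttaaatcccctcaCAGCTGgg
Gys1: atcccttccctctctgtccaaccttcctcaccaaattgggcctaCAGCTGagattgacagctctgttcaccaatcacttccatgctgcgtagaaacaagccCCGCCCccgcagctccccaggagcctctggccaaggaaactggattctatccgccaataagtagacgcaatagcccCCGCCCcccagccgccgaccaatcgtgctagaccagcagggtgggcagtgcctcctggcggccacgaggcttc
Phka1: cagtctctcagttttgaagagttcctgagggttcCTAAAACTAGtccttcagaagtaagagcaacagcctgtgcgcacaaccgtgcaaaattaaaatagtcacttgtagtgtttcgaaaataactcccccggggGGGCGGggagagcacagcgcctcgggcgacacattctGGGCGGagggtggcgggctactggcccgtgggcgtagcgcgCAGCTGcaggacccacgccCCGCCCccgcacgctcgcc
The windows lie at chr5:129879089-129879338 (minus strand) for Phkg1, chr2:150786546-150786734 (plus) for Pygb, chr16:70313699-70313948 (plus) for Gbe1, chr19:6384158-6384407 (plus) for Pygm, chr7:45434589-45434838 (plus) for Gys1 and chrX:102644247-102644496 (minus) for Phka1. All 9 genes had an entry, and Ugp2 had a pair of starts, which made 10 windows. The starts of RefSeq and GENCODE M21 differ for several genes, and 6 of the 10 windows hold bases inside the GENCODE span of their gene. The windows of Phkg1 and 1 of Ugp2 lie in it wholly and outside exons, whereas 201 bases of the Gyg window, 61 of Pygb, 49 of Ppp1r3c and 9 of Pygm are exonic. For both Ugp2 starts, a stretch shortly after the start was not found in a GENCODE transcript of the gene.

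Since Med1 is known to bind nuclear receptors, the windows were searched on both strands for the nuclear receptor half-site AGGTCA, for AAGGTCA, which contains it, and for the direct repeat DR1, which is AGGTCA, any 1 base and AGGTCA again. None of these was in any of the 10 windows, against 14.0%, 4.08% and 0.0335% of the 32841 windows of the same length in the table. The TATA box TATAAA was in none of the 10, against 12.4% of all. The E-box CAGCTG was in the windows of 5 of the 9 genes and in 13.0% of all windows. It was found at 2 places in the Pygm window, from -168 to -163 and from -8 to -3 counted from the start, and in Gys1, Phka1, Ppp1r3c and 1 of the Ugp2 windows. The E-box CACGTG was found in Ppp1r3c (6.02% of all windows) and the outer letters of a MEF2 site, CTA, any 4 bases and TAG, in Phka1 (3.20%). The GC box GGGCGG was in 0 of the 4 genes that were more than 2-fold lower and in 4 of the 5 that lay within 2-fold (Gys1, Gyg, Phka1 and Ugp2), against 32.7% of all windows. The Gyg match, from -45 to -40, lies in the exonic bases of its window. Members are counted per gene, with 2 windows for Ugp2, whereas the shares of all are per window. These are counts of letters in short windows of few genes. The motifs were chosen with the windows in view, and no test was made of the counts.

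In the study's data as a whole, Med1 itself had 3.38 FPKM in Med1fl/fl and 0.412 FPKM in csMed1-/- heart, 8.22-fold lower. Read totals are not analysed here, so the depth behind a single value is unknown and no interval is given. Low values move in steps of whole reads, which put the depth of the csMed1-/- library at 1.39 times that of the other, provided that FPKM was scaled to mapped fragments alone. Of the 8 cardiomyocyte markers listed, Tnnt2, Tnni3, Actn2, Mybpc3, Ttn and Myl3 were found in both libraries, with a summed level over these 6 of 32607 FPKM in Med1fl/fl and 15806 FPKM in csMed1-/- heart. Their log2 ratios ran from -2.74 to 0.56 and 2 of the 6 were more than 2-fold lower, beside 18.0% of all genes tested. Actc1 is listed at 0 in Med1fl/fl and at 9189 FPKM in csMed1-/- heart, and Myh6 stands only on a row shared with Myh7, listed at 0 and 647 FPKM. Every cardiomyocyte uses these genes, so the zeros may be failed estimates, and with Actc1 the sum in csMed1-/- heart was 24995 FPKM. In each direction 6 genes were listed at 0 in one library and at 100 FPKM or more in the other, and none of the 9 glycogen genes is among them. The 7 fibroblast markers summed to 492 FPKM in Med1fl/fl and 1168 FPKM in csMed1-/- heart (3 more than 2-fold higher, 1 lower). The 6 endothelial markers summed to 404 and 263 FPKM (3 lower). Of all genes tested, 18.0% were more than 2-fold lower and 13.6% higher, and these short marker lists were not tested against those shares. In bulk RNA, fewer cells of a type and less RNA per cell cannot be told apart, and the part of cell composition in the values that follow was not tested.

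**Figure D2:**
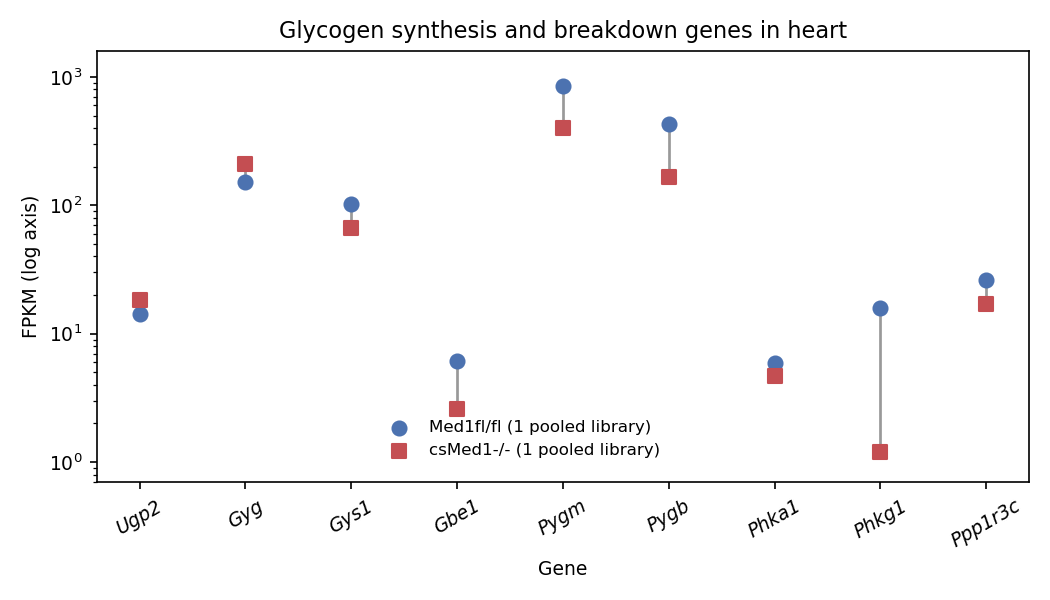
FPKM (log axis) of the 9 glycogen genes in the pooled Med1fl/fl library (circles) and the pooled csMed1-/- library (squares), 1 library each, with a grey line joining the values of a gene. The genes run in the order of synthesis, breakdown and regulation, and the longest line is that of Phkg1, from 16.0 to 1.20 FPKM.

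Among the listed genes of synthesis, Ugp2 and Gyg had csMed1-/- to Med1fl/fl ratios above 1, and Gys1 and Gbe1 had ratios below 1. Genes of the steps before UDP-glucose, given further below, lay on both sides of 1. Ugp2 (chr11:21321138-21371201, minus strand), which encodes UDP-glucose pyrophosphorylase, had 14.3 FPKM in Med1fl/fl and 18.4 FPKM in csMed1-/- heart (ratio 1.29, log2 ratio 0.36). Gyg (chr3:20122084-20155317, minus), which encodes glycogenin, had 151 and 210 FPKM, a ratio of 1.39 (log2 ratio 0.48). Both lay within 2-fold, at the 68.7th and 72.8th percentile of the log2 ratios of all genes tested.

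Gys1 (chr7:45434844-45456619, plus), which encodes the muscle form of glycogen synthase, had 102 FPKM in Med1fl/fl and 66.9 FPKM in csMed1-/- heart (ratio 0.653, log2 ratio -0.62). Gbe1 (chr16:70313949-70569716, plus), which encodes the branching enzyme, had 6.18 and 2.59 FPKM, a ratio of 0.419 (log2 ratio -1.25). Of the 4 genes of synthesis only Gbe1 passed 2-fold, and it also had the lowest level of them in both libraries. With 1 FPKM added to both values, the log2 ratio of Gbe1 was -0.999, just within 2-fold. The window of Gbe1 printed above holds none of the motifs searched.

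Because the values of 1 library share the same scaling, ratios between genes within a library do not depend on how the libraries were scaled to each other. Gyg stood at 1.47 times the FPKM of Gys1 in Med1fl/fl and at 3.14 times in csMed1-/- heart. Ugp2 went from 0.140 to 0.275 and Gbe1 from 0.0603 to 0.0388 of the Gys1 level. The order of FPKM levels, Gyg above Gys1 above Ugp2 above Gbe1, was the same in both libraries. Gys2, which encodes the liver form of the synthase, had 0.00592 FPKM in Med1fl/fl and was listed at 0 in csMed1-/- heart, so Gys1 made up 99.99% or more of the synthase FPKM in either library.

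Both phosphorylase genes of the list were more than 2-fold lower in csMed1-/- heart. Pygm (chr19:6384399-6398459, plus), which encodes the muscle isoform, had 851 FPKM in Med1fl/fl and 401 FPKM in csMed1-/- heart (ratio 0.472, log2 ratio -1.08). Pygm passed 2-fold narrowly, with a log2 ratio of -1.01 when the ratios were centred on the median of all genes tested. It was the most abundant of the 9 genes and ranked 171 among all 22882 symbols in Med1fl/fl and 323 in csMed1-/- heart. Pygb (chr2:150786735-150831758, plus), which encodes the brain isoform, had 429 and 166 FPKM, a ratio of 0.387 (log2 ratio -1.37).

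Pygl, the liver isoform, had 1.41 and 1.01 FPKM. The 3 phosphorylase genes summed to 1281 FPKM in Med1fl/fl and 568 FPKM in csMed1-/- heart (ratio 0.444). The composition of this sum moved little. Pygm made up 66.4% of it in Med1fl/fl and 70.6% in csMed1-/- heart, Pygb 33.5% and 29.2%, and Pygl less than 1% in both. Per FPKM of Gys1, the phosphorylase genes stood at 12.5 in Med1fl/fl and at 8.50 in csMed1-/- heart, so phosphorylase transcripts exceeded those of the synthase in both libraries, and by less in the latter. Of the 50-base reads that the main Pygm transcript can give, 0.46% match Pygb as well.

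The subunit genes of phosphorylase kinase differed unequally between the libraries. Phkg1 (chr5:129863421-129898549, minus), which encodes the muscle gamma subunit, had 16.0 FPKM in Med1fl/fl and 1.20 FPKM in csMed1-/- heart. This is 13.3-fold lower (log2 ratio -3.73), at the 0.887th percentile of all genes tested, and with 1 FPKM added to both values the log2 ratio was -2.95. Phka1 (chrX:102513975-102644246, minus), which encodes the muscle alpha subunit, had 5.89 and 4.72 FPKM, a ratio of 0.802 (log2 ratio -0.32).

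The other gamma gene lay on the opposite side of 1. Phkg2, the gamma subunit known from liver and testis, had 8.63 FPKM in Med1fl/fl and 17.6 FPKM in csMed1-/- heart (ratio 2.04, log2 ratio 1.03), and passed 2-fold narrowly, which it did not with 1 FPKM added to both values (log2 ratio 0.95). The gamma genes together had 24.6 and 18.8 FPKM, a ratio of 0.765, but the share of Phkg1 went from 64.9% to 6.39% and that of Phkg2 from 35.1% to 93.6%. Phkg1 thus stood at 1.85 times the level of Phkg2 in Med1fl/fl and at 0.0683 times in csMed1-/- heart.

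Phka2, the liver alpha subunit, had 5.72 and 8.21 FPKM, and the share of Phka1 in the alpha genes went from 50.7% to 36.5%. In both pairs the muscle isoform had the lower ratio, whereas of the phosphorylases the muscle isoform Pygm had a ratio above that of Pygb. Phkb, which encodes the only beta subunit, had 3.75 and 1.73 FPKM (ratio 0.460). Calm2 and Calm3, whose product calmodulin is the calcium-sensing subunit of the complex among many other roles, had 22.9 and 28.9 FPKM (log2 ratio 0.34) and 127 and 252 FPKM (log2 ratio 0.99).

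**Figure D3:**
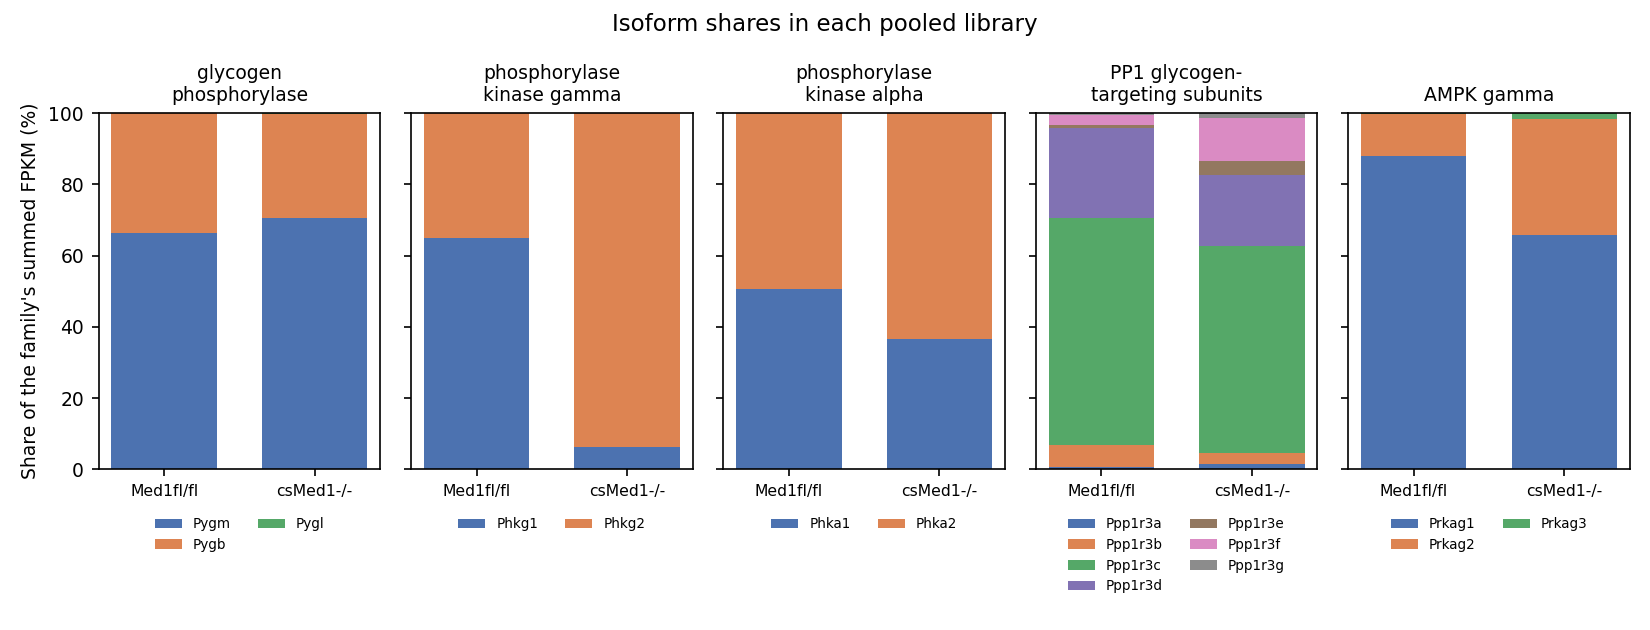
Stacked bars of the share (%) that each isoform gene holds of the summed FPKM of its family in the Med1fl/fl and the csMed1-/- library, 1 pooled library each, for glycogen phosphorylase, the gamma and alpha subunits of phosphorylase kinase, the glycogen-targeting subunits of protein phosphatase 1 (PP1) and the gamma subunit of AMP-activated protein kinase (AMPK). The gamma bars of phosphorylase kinase turn from 64.9% Phkg1 to 93.6% Phkg2, and the phosphorylase bars stay close to each other.

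Some other values bear on how the Phkg1 value is read. Since Phkg1, Pygm and Phka1 are abundant in skeletal muscle, 9 markers of skeletal muscle were listed. The 8 with a row of their own summed to 11.7 FPKM in Med1fl/fl and 4.46 FPKM in csMed1-/- heart. Tnni2 had 5.38 and 0.276 FPKM, Myh1 4.05 and 0.471 FPKM and Mylpf 0.955 and 2.44 FPKM. The other 5 (Myh4, Tnnt3, Tnnc2, Atp2a1 and Pvalb) stayed below 1 FPKM in both libraries, Myh2 stands on a row shared with Myh8 at 2.93 and 0.264 FPKM, and none was at 0. Tnni2, Myh1, Myh4, Atp2a1 and Pvalb were thus lower, and Mylpf, Tnnt3 and Tnnc2 higher, in the library in which Phkg1 was low, and their part in the Phkg1 value was not tested. In the GENCODE M21 annotation, 9.68% of the exonic bases of Phkg1 overlap Sumf2 on the opposite strand, and Sumf2 had 8.90 and 12.4 FPKM. For Gys1 the overlap is 6.47%, with Ruvbl2 (23.2 and 12.4 FPKM), and for Phkg2 it is 21.9%, with Ccdc189. The libraries were directional, but whether strand was used in counting is not given in the sources used here. Of the 50-base reads of the main Phkg1 transcript, 2.97% occur in transcripts of other genes.

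Ppp1r3c (chr19:36731731-36736653, minus), which encodes a subunit that targets protein phosphatase 1 to glycogen, had 26.3 FPKM in Med1fl/fl and 17.0 FPKM in csMed1-/- heart (ratio 0.645, log2 ratio -0.63). It lay within 2-fold and kept its level beside Gys1, at 0.257 of the Gys1 FPKM in Med1fl/fl and 0.254 in csMed1-/- heart. It was the most abundant of the 7 targeting subunit genes in both libraries, with 63.6% and 58.0% of their summed FPKM. Ppp1r3d was second, with 10.5 and 5.79 FPKM.

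Of the less abundant targeting subunit genes, 3 passed 2-fold. With the catalytic subunit genes and without Ppp1r3c, 7 genes were tested, 1 lower (14.3%) and 2 higher (28.6%). The shares of all genes tested were 18.0% and 13.6%. Ppp1r3b had 2.49 FPKM in Med1fl/fl and 0.924 FPKM in csMed1-/- heart (ratio 0.371). Ppp1r3f had 1.19 and 3.57 FPKM (ratio 2.99) and Ppp1r3e 0.289 and 1.16 FPKM (ratio 4.01), so both were more than 2-fold higher, from low levels. With 1 FPKM added to both values, Ppp1r3b (log2 ratio -0.86) and Ppp1r3e (0.74) lay within 2-fold. Ppp1r3a (0.322 and 0.454 FPKM) and Ppp1r3g (0.222 and 0.372 FPKM) stayed below 1 FPKM in both libraries and were not tested. The sum of the 7 genes was 41.3 FPKM in Med1fl/fl and 29.2 FPKM in csMed1-/- heart. The catalytic subunits lay within 2-fold, at ratios of 1.42 (Ppp1ca), 1.28 (Ppp1cb) and 0.872 (Ppp1cc).

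A wider list held 39 other genes of glucose entry, glycogen turnover and its control. Of these, 35 passed the filter on low values, 7 were more than 2-fold lower (20.0%) and 7 more than 2-fold higher (20.0%), beside 18.0% and 13.6% of all genes tested. The median log2 ratio of the 35 genes was 0.13. Calls in the wider list thus lay on both sides, and each of its 4 groups held genes past 2-fold in both directions.

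In breakdown, of the 8 genes listed beside Pygm, Pygb, Phka1 and Phkg1, 1 was more than 2-fold lower (Phkb) and 1 was higher (Phkg2), beside 18.0% and 13.6% of all genes tested. Gaa, the lysosomal glucosidase that degrades glycogen by a separate route, had 108 and 110 FPKM, a ratio of 1.02. Stbd1, a glycogen-binding protein, had 4.64 and 7.45 FPKM. The cytosolic phosphorylases Pygm and Pygb thus lay below the lower 2-fold line and the lysosomal enzyme at almost the same level in both libraries.

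In glucose entry and the first steps of synthesis, 3 of the 7 genes tested were more than 2-fold lower and 1 was higher, beside 18.0% and 13.6% of all genes. The insulin-responsive transporter gene Slc2a4 had 347 FPKM in Med1fl/fl and 71.5 FPKM in csMed1-/- heart, whereas Slc2a1, the gene of the basal transporter, had 13.5 and 33.0 FPKM (ratio 2.44). Hexokinase 2 (Hk2) had 39.7 and 12.6 FPKM and hexokinase 1 (Hk1) 91.6 and 123 FPKM, so the higher of these hexokinase genes was Hk1 in both libraries. Of the phosphoglucomutase genes, Pgm2 had 188 and 98.8 FPKM (ratio 0.525) and Pgm1 1.93 and 1.49 FPKM, both within 2-fold. The third gene that was more than 2-fold lower was Pgm5 (13.3 and 5.87 FPKM), whose product is related to these enzymes but is known as a protein of adherens junctions. Pgm2l1 and Gys2 were below the filter.

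Among the 13 genes of kinases and of glycogen quality control, the pair that is mutated in Lafora disease, in which poorly branched glycogen accumulates, was the lowest. Epm2a, which encodes the glycogen phosphatase laforin, had 5.43 FPKM in Med1fl/fl and 1.04 FPKM in csMed1-/- heart, 5.23-fold lower. Nhlrc1, which encodes its partner ubiquitin ligase malin, had 8.93 and 1.93 FPKM, 4.64-fold lower. Of the 13 genes, 2 were more than 2-fold lower (15.4%) and 3 were higher (23.1%). The shares of all genes tested were 18.0% and 13.6%. The 2 lower genes are Epm2a and Nhlrc1. The 3 higher ones are all subunits of AMPK, a kinase that senses energy state and binds glycogen through its beta subunit.

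Prkag2, whose mutations are known to cause cardiac glycogen storage, had 14.0 FPKM in Med1fl/fl and 42.6 FPKM in csMed1-/- heart (ratio 3.04). Prkab2 had 3.94 and 10.7 FPKM (ratio 2.71) and Prkag3 0.378 and 2.28 FPKM (ratio 6.03). The other beta gene, Prkab1, was the more abundant beta gene in both libraries, at 37.3 and 24.5 FPKM (ratio 0.657, within 2-fold). With 1 FPKM added to both values the log2 ratio of Prkag3 was 1.25, below that of Prkag2 at 1.54. Prkag1 remained the main gamma gene at 106 and 85.7 FPKM, and its share of the gamma genes went from 88.0% to 65.6%, while that of Prkag2 went from 11.7% to 32.6%. The catalytic genes Prkaa1 and Prkaa2 lay within 2-fold, at log2 ratios of 0.29 and -0.27. The synthase kinases Gsk3a and Gsk3b had log2 ratios of 0.49 and 0.43, and the catalytic subunits of protein kinase A, which activates phosphorylase kinase, -0.28 (Prkaca) and 0.13 (Prkacb).

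**Figure D4:**
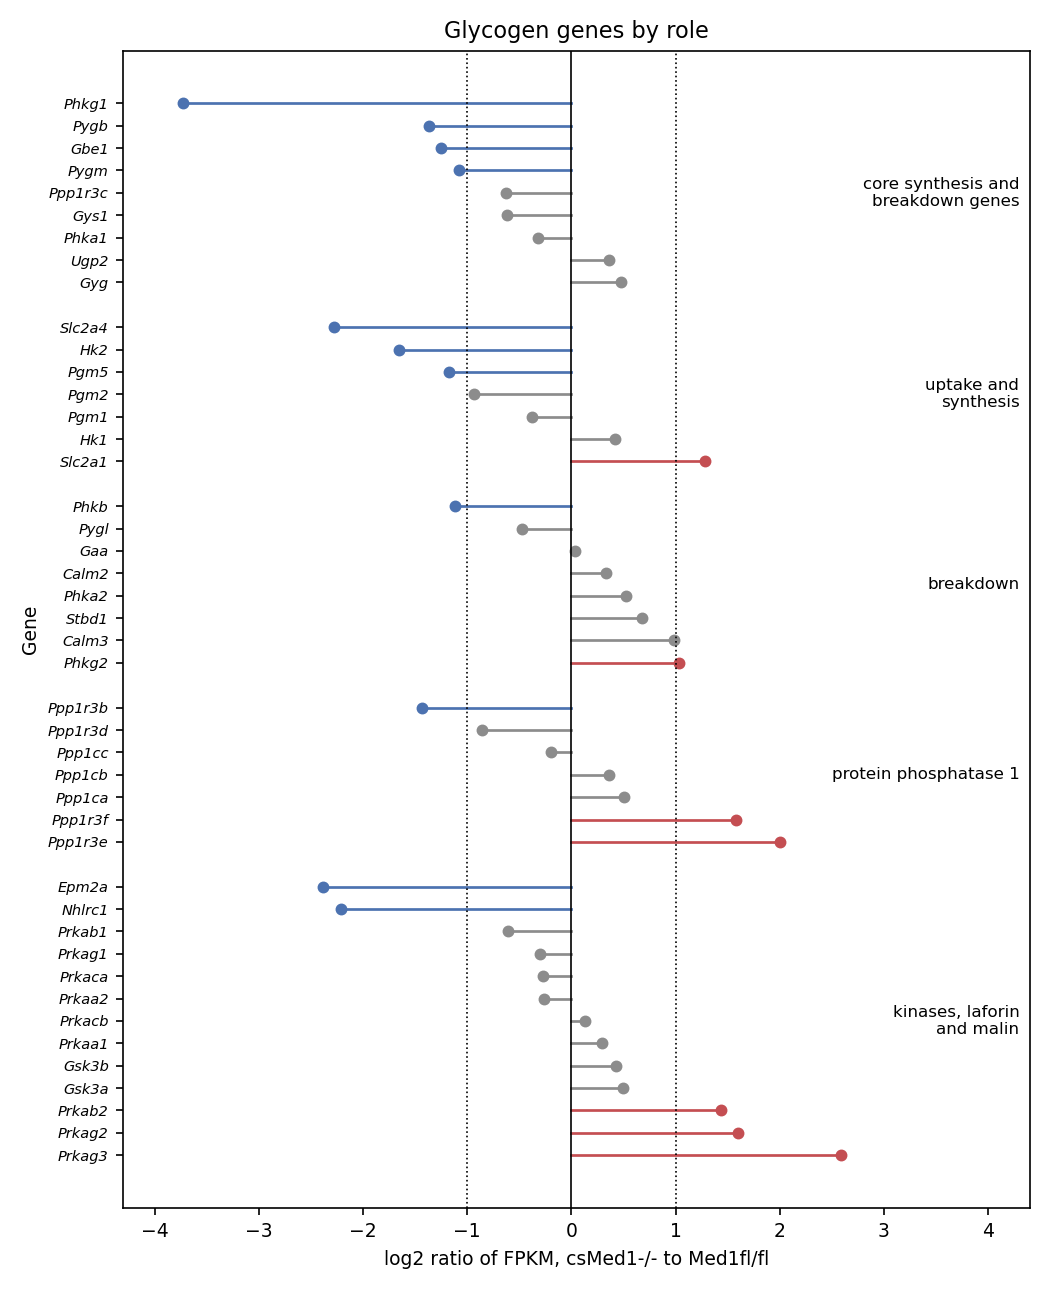
Log2 ratio of FPKM, csMed1-/- to Med1fl/fl (1 pooled library each), for the 9 core genes and the 35 wider genes that passed the filter, grouped by role, with dotted lines at 2-fold. Blue marks genes more than 2-fold lower, red more than 2-fold higher and grey the genes between, and the longest lines are Phkg1 at -3.73 on the left and Prkag3 at 2.59 on the right, which rests on 0.378 FPKM in Med1fl/fl and is 1.25 with 1 FPKM added to both values.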

How the data were processed

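RNA of 23-day-old mouse hearts was pooled from 5 mice per genotype, enriched for polyadenylated RNA and read as 50-base single-end reads from 1 directional library per pool. Per the study's methods, the authors aligned the reads to mm10 with TopHat 2.0.8b and obtained the deposited FPKM values with Cufflinks and Cuffdiff 2.1.1 from known genes. The submitters' processing notes also name STAR 2.4.0h, Bowtie2 and DESeq2 with no role given. The library scaling is not given in the sources used here.

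Here, the values of rows sharing a symbol (412 of 22882 symbols on 23424 rows) were summed, and the plain ratio of csMed1-/- to Med1fl/fl FPKM was taken with no pseudocount. Genes with no value of 0 and a higher value of at least 1 FPKM were counted as past 2-fold or not. The study states this 2-fold threshold and also called differences with Cuffdiff at a false discovery rate cutoff. That cutoff was not applied here, so the counts rest on fold alone and are not those of the study. No test was made here, since 1 library per genotype gives no spread between pools. The 9 genes and all lists, taken from textbook knowledge of glycogen metabolism and of cell types, were chosen with earlier results of these data known. Motifs were chosen with the windows in view. The rule named the 9 genes, every wider gene past 2-fold, the other isoforms of the 9 genes, Pgm1 and Pgm2, and Med1. Some genes of the wider list are not reported here and are in none of its counts. Wider genes within 2-fold that are no isoform of the 9 (Gaa, Stbd1, Hk1, Calm2, Calm3, the catalytic subunits of protein phosphatase 1, and kinase genes), cell type markers and genes overlapping the 9 were named outside this rule, after their values were seen. Marker lists not described beside the results gave, in Med1fl/fl and csMed1-/- heart, summed levels of 246 and 231 FPKM (6 macrophage genes), 604 and 1024 FPKM (4 smooth muscle genes), 2.97 and 2.59 FPKM (7 neural genes) and 0 and 0.0183 FPKM (4 adipocyte genes). Of the smooth muscle genes, Cnn1 (4.32 and 622 FPKM) and Tagln (23.8 and 89.7 FPKM) were higher in csMed1-/- heart. Acta2 (573 and 310 FPKM) and Myh11 (3.68 and 1.79 FPKM) were lower.

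Gene positions, exon overlaps and shared 50-base words came from GENCODE M21 (GRCm38), and sequences before the starts from RefSeq on GRCm38.p6. The computation was run on simulated data, made from the Med1fl/fl values with known folds put in. This checks the arithmetic only, since neither read counts nor the spread between animals was simulated. Python 3.11.15, numpy 2.4.6, pandas 2.3.3 and matplotlib 3.10.9 were used.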

Additional observations from a re-analysis of the deposited data

How the results depend on the processing

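Depth and replicate spread are unknown, so no ratio above carries an error, and values near 1 FPKM (Phkg1 in csMed1-/- heart, Ppp1r3b, Ppp1r3e, Epm2a, Prkag3) rest on an unknown number of reads. No paired analysis was possible because each genotype has 1 library. All 9 genes kept their direction under 3 other library scalings. Pseudocounts of 0.1 and 1 and both other filters on low values cannot turn the direction of a ratio. The highest row per symbol leaves these genes as they are, since each stands on a single row. Of the wider genes only Gaa changed sign, between log2 ratios of -0.01 and 0.10. A pseudocount of 1 took Gbe1 to -0.999, just within 2-fold, and Phkb, Phkg2, Ppp1r3b and Ppp1r3e within 2-fold (-0.80, 0.95, -0.86 and 0.74), and moved Phkg1 to -2.95. At 1 FPKM or more in both libraries Ppp1r3b, Ppp1r3e, Prkaa1 and Prkag3 were not tested. Scaling to the 75th percentile took Phkg2 to 0.99, and centring on the median took Calm3 past 2-fold (1.06). A 4-fold threshold left 1 of the 9 genes lower (Phkg1), and 3 wider genes lower and 2 higher, with 539 and 453 of all genes. At 1.5-fold 6 of the 9 genes were lower, and 3120 of all genes were lower and 2488 higher. With no filter, 15930 genes were tested, 3182 lower and 2504 higher.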
